A study of Mus musculus with 8 samples.

Results

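Ppl, Evpl, Ivl, Lor, Cdsn, Sbsn, Dmkn and Krtdap are genes of the outer layers of stratified epithelium, and their transcripts were followed in oral mucosa of the mouse. They were found in the count tables by symbol, and the set was put together with earlier results of these data known. All 8 were present among the 33545 entries that had a count in any sample. The tissue came from wild-type C57BL/6J mice. From 4 sites, which were buccal mucosa (the inner cheek), the dorsal and the ventral tongue and the hard palate, 2 samples each were taken and numbered as replicates. Each sample was cut into 20 serial sections of 14 µm, and the RNA of every section was barcoded and sequenced from its 3′ end (tomo-seq with CEL-seq2). The labels give no treatment, sex or age. Nor do they say if the replicates of a site were different animals, and the spread on which p-values rest may therefore be technical. Which section number lay nearest the surface is not given either.

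A keratinocyte that leaves the basal layer builds a cornified envelope, a shell of cross-linked protein under its membrane, before it is shed. Envoplakin (Evpl) and periplakin (Ppl), 2 plakins that pair with each other, form an early scaffold at the membrane together with involucrin (Ivl). Transglutaminases then cross-link loricrin (Lor), a glycine-rich protein that makes up much of the finished envelope in epidermis. Corneodesmosin (Cdsn) is a glycoprotein of the corneodesmosome, the junction that holds cornified cells together until proteases cut it. Suprabasin (Sbsn), dermokine (Dmkn) and keratinocyte differentiation-associated protein (Krtdap) are secreted proteins of suprabasal keratinocytes encoded side by side.

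There were 2 groups of neighbours in the genome (GENCODE annotation of GRCm38). Sbsn (chr7:30751471-30756134), Dmkn (chr7:30763756-30781063) and Krtdap (chr7:30787896-30791097) lie on the plus strand within 39.6 kb of each other. Lor (chr3:92080271-92083142) and Ivl (chr3:92570902-92573735) lie on the minus strand of the epidermal differentiation complex, within a span of 493.5 kb. Cdsn lies at chr17:35552128-35557180, Ppl at chr16:5086291-5132421 and Evpl at chr11:116220559-116238077, the first on the plus strand and the other 2 on the minus strand.

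The promoters of these 5 neighbours are shown because the 2 members with the most alike section profiles over all 8 samples were among them. These were Dmkn with Krtdap by UMIs and Sbsn with Dmkn by reads. Without buccal mucosa replicate 2 the first pair by reads was Lor with Cdsn, and Cdsn is not a neighbour. RefSeq promoter windows (GRCm38.p6, 250 bases before to 50 after each start site) were matched for 6 of the 8 genes, and Ppl and Evpl had none. The 130 bases before the start site follow, 5′ to 3′ on the gene's own strand, with capitals for the AP-1 word (TGANTCA), the TATA word (TATAAA, on the gene's strand) and the CACCC word (CCACCC or its complement). They cover chr3:92083143-92083272 for Lor, chr3:92573736-92573865 for Ivl, chr7:30751341-30751470 for Sbsn, chr7:30763626-30763755 for the first Dmkn window and chr7:30787775-30787904 for Krtdap.
Lor: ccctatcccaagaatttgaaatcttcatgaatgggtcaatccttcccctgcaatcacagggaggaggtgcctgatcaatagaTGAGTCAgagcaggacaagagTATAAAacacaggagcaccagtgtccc
Ivl: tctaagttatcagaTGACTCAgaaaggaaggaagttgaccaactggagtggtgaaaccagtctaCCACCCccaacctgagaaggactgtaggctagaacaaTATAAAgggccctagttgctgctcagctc
Sbsn: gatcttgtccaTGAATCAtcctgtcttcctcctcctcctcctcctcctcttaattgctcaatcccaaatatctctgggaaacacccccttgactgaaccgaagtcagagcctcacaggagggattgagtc
Dmkn: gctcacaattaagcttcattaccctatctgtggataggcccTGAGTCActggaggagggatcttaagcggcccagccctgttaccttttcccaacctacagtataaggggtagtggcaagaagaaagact
Krtdap: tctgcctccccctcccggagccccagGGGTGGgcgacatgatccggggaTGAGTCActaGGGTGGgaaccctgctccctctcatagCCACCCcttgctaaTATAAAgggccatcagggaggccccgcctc

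In the full windows of 300 bases, the AP-1 word, searched on both strands, was present for Lor, Ivl, Sbsn, Dmkn and Krtdap. It was present in all 3 Dmkn windows, and 2 copies were found for Sbsn, the second of which crosses the start site and is left in lower case above. These letters were not in either of the 2 Cdsn windows. Of 32817 mouse promoters of this length, 7.81% held the word. TATAAA was found for Lor, Ivl and Krtdap, 27, 29 and 30 bases before the start, and was held by 8.32% of all promoters. The CACCC word, on either strand, was held by 31.5%. These matches describe the letters and show no binding.

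Sample totals ran from 7830471 to 26376536 UMIs (unique molecular identifiers, which count each captured molecule once). Sections under 100000 UMIs were sections 4, 19 and 20 of buccal mucosa replicate 1, section 5 of dorsal tongue replicate 1, section 11 of dorsal tongue replicate 2 and section 20 of hard palate replicate 1. A list of 14 keratinocyte genes outside the set, such as Trp63 and Col17a1, summed to 2260 to 5482 CPM (counts per 1000000 counts of the sample) in 7 samples. In buccal mucosa replicate 2 it summed to 194 CPM. That sample also held 8792 CPM of salivary gland genes (1.61 to 36.0 elsewhere), 3559 CPM of adipocyte genes (17.1 to 254 elsewhere) and 101 CPM of hair follicle sheath keratins (0.770 to 4.90 elsewhere), with Krt72 of that list at 0. Skeletal muscle genes summed to 175 and 404 CPM in hard palate and to 10979 to 36168 CPM in the other samples. In bulk sections, fewer keratinocytes and less RNA per keratinocyte cannot be told apart, so results are given with and without buccal mucosa replicate 2.

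Together the 8 genes took 1.00% to 1.38% of the UMIs in 7 samples and 0.0106% in buccal mucosa replicate 2. UMIs of 6 bases can take 4096 different sequences, which sets a ceiling for the UMI count of a gene in a section. The highest Lor counts were 4101 and 4097, in sections 6 and 7 of dorsal tongue replicate 1, so 2 sections were listed slightly above that number. Lor reached at least 90% of that number in 70 of 160 sections, Krtdap in 5, and Cdsn and Dmkn in 1 each. Lor had 2.38 to 6.87 reads per UMI outside buccal mucosa replicate 2, and Ivl 1.00 to 1.13. Reads, which have no such ceiling but count amplified copies, are therefore given beside UMIs for Lor and Krtdap. By reads the 8 genes took 1.11% to 2.50% of those 7 samples. UMIs and reads were counted at the 3′ end and were not scaled by gene length.

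**Figure D1:**
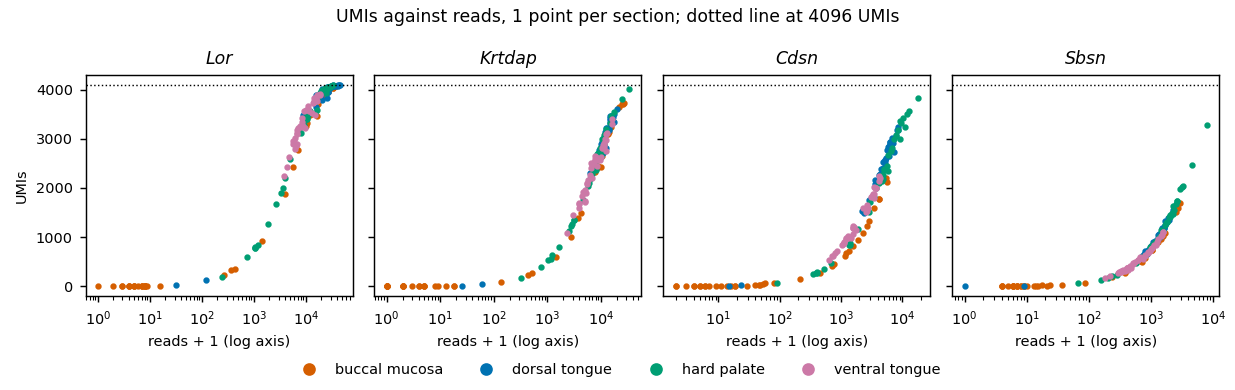
UMIs (linear axis) against reads plus 1 (log axis) of Lor, Krtdap, Cdsn and Sbsn, with 1 point per section coloured by site and a dotted line at 4096 UMIs. Lor points bend along the line, and its 70 sections with 90% or more of 4096 UMIs span 13623 to 46201 reads, while Sbsn reaches 3285 UMIs at most.

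The plakin pair was expressed at all sites. Ppl stood at 1113 CPM in buccal mucosa replicate 1, 880 and 576 CPM in dorsal tongue replicates 1 and 2, 443 and 792 CPM in the hard palate, and 690 and 567.7 CPM in the ventral tongue. In buccal mucosa replicate 2 it was 13.8 CPM. The sites overlapped, and hard palate held both the lowest and the third highest of the 7 higher values. Evpl stood at 919 CPM in buccal mucosa replicate 1, 453 and 482 CPM in dorsal tongue, 550 and 518 CPM in the hard palate, and 370 and 500 CPM in the ventral tongue. It was at 30 UMIs (3.83 CPM) in buccal mucosa replicate 2. Buccal mucosa replicate 1 was thus the highest sample for both plakins. The ratio of Ppl to Evpl UMIs was not steady within a site. It was 1.94 and 1.19 in the replicates of dorsal tongue, 0.806 and 1.53 in the hard palate, and 1.87 and 1.14 in the ventral tongue. It was 1.21 in buccal mucosa replicate 1 and 3.6 in replicate 2. Reads gave nearly the same ratios, from 0.718 to 2.09 outside buccal mucosa replicate 2.

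Ivl, the third scaffold gene, was scarce everywhere and had the widest range of CPM of the members outside buccal mucosa replicate 2. It had 222 and 234 UMIs in dorsal tongue replicates 1 and 2 and 150 and 255 in hard palate, which is 10.5, 11.5, 8.45 and 9.67 CPM. It had 8 and 6 UMIs in buccal mucosa (0.474 and 0.766 CPM) and 14 and 52 in ventral tongue (0.865 and 2.53 CPM). By CPM the 4 samples of dorsal tongue and hard palate did not overlap with the 4 of buccal mucosa and ventral tongue. This grouping was read from the Ivl values themselves, and the share of all genes that split alike is not given here. Exact 95% Poisson intervals, which cover counting error only, were 0.205 to 0.934 CPM and 0.281 to 1.67 CPM in buccal mucosa replicates 1 and 2. They were 7.16 to 9.92 CPM in hard palate replicate 1 and 1.89 to 3.32 CPM in ventral tongue replicate 2. Ivl was at 0 in 42 of 160 sections, and a count of 0 allows up to 3 UMIs. At most 38 UMIs were counted in a section, so it was far from the UMI limit.

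Lor was high at every site outside buccal mucosa replicate 2. It stood at 3432 CPM in buccal mucosa replicate 1, 3564 and 3736 CPM in dorsal tongue, 2501 and 2809 CPM in the hard palate, and 3861 and 3513 CPM in the ventral tongue, against 12.4 CPM in buccal mucosa replicate 2. Reads spread these 7 samples over a 3.40-fold range, against 1.54-fold by UMIs. The range by reads was also wider for Sbsn (3.40-fold against 2.43-fold), which had no section near the limit. Lor read CPM was 12828 and 11913 in dorsal tongue, 7570 in buccal mucosa replicate 1, 3775 and 6442 in the hard palate, and 4616 and 5998 in the ventral tongue. By reads dorsal tongue lay above all other samples, whereas by UMIs ventral tongue replicate 1 was highest. In dorsal tongue 18 sections of each replicate were within 10% of the UMI limit. Because of that limit the ratio of Lor to Ivl is given by reads. For each Ivl read there were 2175 and 1954 Lor reads in dorsal tongue and 821 and 1231 in the hard palate. In the ventral tongue there were 10602 and 4709, and in buccal mucosa 35271 and 7.69. The ratio was thus higher in dorsal tongue than in hard palate and higher still in ventral tongue.

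Cdsn, the corneodesmosome gene, stood at 2132 and 2564 CPM in dorsal tongue, 1493 and 2095 CPM in hard palate, 1174 and 1697 CPM in ventral tongue, and 1085 and 19.03 CPM in buccal mucosa. By UMIs both dorsal tongue replicates were above all other samples, while by reads hard palate replicate 2 (2695 CPM) lay between them (2175 and 2785 CPM). Dmkn, of the secreted proteins, stood at 1844 to 2391 CPM outside buccal mucosa replicate 2, a 1.30-fold range by UMIs and 2.04-fold by reads. In buccal mucosa replicate 2 it was 35.4 CPM and made up 41.3% of the set's reads, against 9.86% to 16.7% in the other samples. Krtdap stood at 2659 and 6.00 CPM in buccal mucosa, 2773 and 3040 CPM in dorsal tongue, 2049 and 1982 CPM in the hard palate, and 2563 and 2660 CPM in the ventral tongue. Hard palate was the lowest of these apart from buccal mucosa replicate 2. Krtdap read CPM was 3921 and 3503 in hard palate and 3458 in ventral tongue replicate 1, so by reads those sites overlapped.

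Sbsn was counted in 3 entries, and its own values are only part of its signal. An entry of Tmem147os (ENSMUSG00000109224) is annotated on the same strand and shares 279 exon bases with Sbsn at the 3′ end, where CEL-seq2 reads fall. It had 836 CPM in buccal mucosa replicate 1 against 817 for Sbsn, and had more UMIs than Sbsn in all 8 samples. An entry that names both genes added 340 CPM there. The Sbsn entry was 39.3% to 41.4% of the 3 in all 8 samples. Sbsn stood at 817 and 15.2 CPM in buccal mucosa, 825 and 973 CPM in dorsal tongue, 1108 and 1019 CPM in the hard palate, and 456 and 732 CPM in the ventral tongue. The 3 entries together stood at 1140 to 2680 CPM outside buccal mucosa replicate 2. Which gene the shared reads came from cannot be told from these tables.

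**Figure D2:**
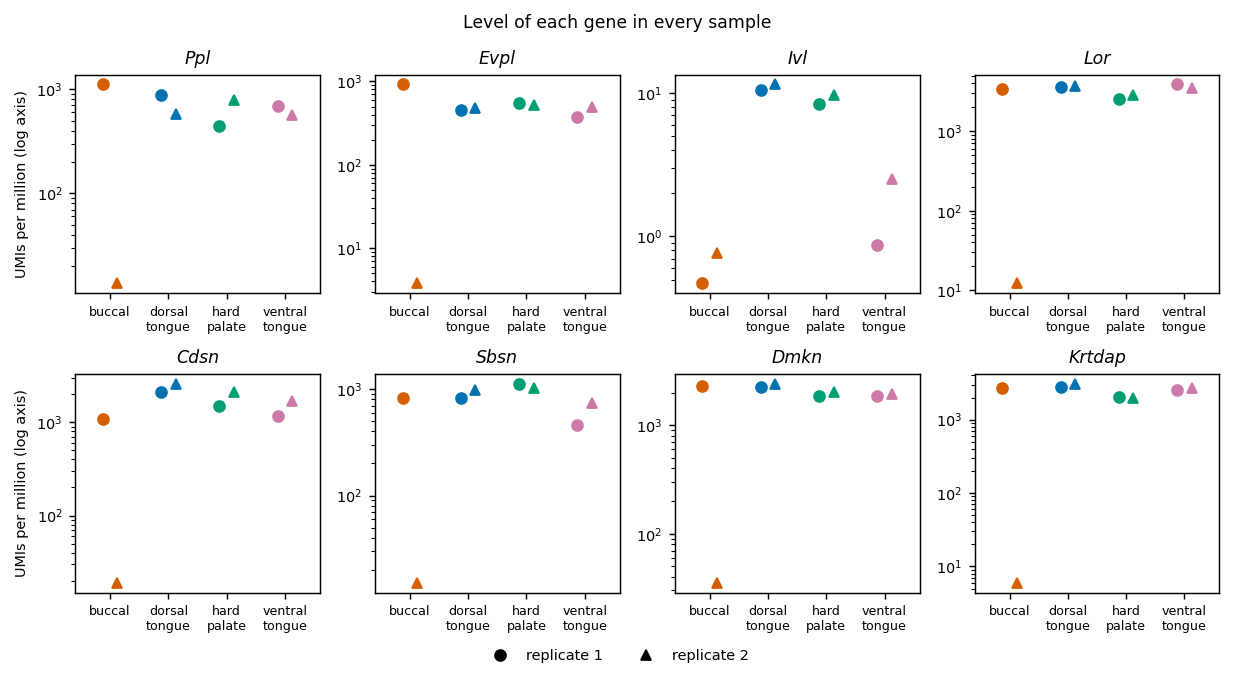
CPM by UMIs (log axis) of each gene in every sample, by site, with circles for replicate 1 and triangles for replicate 2. Buccal mucosa replicate 2 lies far below the other samples for 7 genes, while both buccal samples are low for Ivl, at 0.474 and 0.766 CPM.

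The first comparison asked whether a gene differed between the 4 sites. Ivl passed (edgeR quasi-likelihood F-test, adjusted p = 0.0239) and was the only one of the 8 members to do so, where 4.76% of the 18609 genes tested passed. All 8 members had passed the filter on low counts. Against the mean of the other 3 sites, Ivl was higher in dorsal tongue by a log2 fold change of 2.62 ± 0.38 (SE; edgeR adjusted p = 0.0352) and in hard palate by 1.72 ± 0.38 (edgeR adjusted p = 0.0376). It was the 1 member called in each, where 0.838% and 9.76% of all genes were called. In buccal mucosa Ivl had a log2 difference of -3.25 ± 0.54, which missed the threshold (edgeR adjusted p = 0.0551), and in ventral tongue of -1.09 ± 0.45 (edgeR adjusted p = 0.409). No member was called in these 2 contrasts, where 0.720% and 1.29% of all genes were called. Ivl was the only member at an unadjusted p under 0.05 in each, and DESeq2 called it in buccal mucosa (1 of 8, where 7.48% of all genes were called) and none in ventral tongue (0 of 8, where 4.56% were called).

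The Ivl call was lost in fits with fewer samples. Without any single sample of dorsal tongue, hard palate or ventral tongue the edgeR adjusted p for any difference was 0.0514 to 0.109. The dorsal tongue contrast then had adjusted p of 0.0752 to 0.377, although its log2 fold change stayed between 2.46 and 2.96. The hard palate contrast had adjusted p of 0.0525 to 0.174 without 5 of those samples and was kept without ventral tongue replicate 2, with log2 fold changes of 1.58 to 2.075. Few of all genes passed the test of any difference in those fits, so lost calls there were not limited to Ivl. In the dorsal tongue contrast the fewest of all genes were called without ventral tongue replicate 1. In the hard palate contrast many genes were still called. Why the Ivl calls were lost was not tested. Without buccal mucosa replicate 2 the Ivl call held (edgeR adjusted p = 0.0120 for any difference, 0.0149 in dorsal tongue and 0.0205 in hard palate), where 12.3%, 3.35% and 16.4% of all genes were called. By reads Ivl passed the test of any difference (edgeR adjusted p = 0.0425, where 4.08% of all genes were called). Its log2 fold change by reads was 2.60 in dorsal tongue (edgeR adjusted p = 0.0685, where 0.772% of all genes were called) and 1.63 in hard palate (edgeR adjusted p = 0.0730, where 9.17% were called). Per 1000 UMIs of the keratinocyte list there were 3.28 and 3.29 Ivl UMIs in dorsal tongue, 1.54 and 2.10 in hard palate, 0.383 and 0.873 in ventral tongue and 0.127 in buccal mucosa replicate 1. The 6 Ivl UMIs of buccal mucosa replicate 2 came to 3.95 on this scale, so the buccal replicates took opposite ends. With all 8 samples scaled by that list no member was called between sites in any of the 5 tests (0 of 8, with none at an unadjusted p under 0.05), and the buccal difference of Ivl turned to 0.12. That scaling called 38.9% of all genes for any difference, 74.6% in buccal mucosa, 0.408% in dorsal tongue, 2.63% in hard palate and 0% in ventral tongue, and it moved the median of all genes to 3.21, -1.16, -1.42 and -0.52 in the 4 sites in turn.

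The other 7 genes did not differ detectably between sites, with edgeR adjusted p of 0.673 to 0.999 for any difference. Their log2 differences had standard errors of 1.02 to 1.495, since the buccal replicates were 53.7-fold (Sbsn) to 443-fold (Krtdap) apart. Without buccal mucosa replicate 2 the lone buccal sample was assumed to vary like the other groups, and smaller differences could be seen. Lor was then lower in hard palate by a log2 fold change of -0.74 ± 0.16 (edgeR adjusted p = 0.0254), and Krtdap by -0.73 ± 0.15 (edgeR adjusted p = 0.0217). With Ivl, 3 of 8 members were called in that contrast, where 16.4% of all genes were called. Both hard palate samples lay below the 5 remaining samples for Lor and Krtdap by UMIs, but by reads both genes overlapped with ventral tongue. The share of all genes that split alike is not given here. By reads, which did not saturate, Lor was at -0.999 ± 0.30 (edgeR adjusted p = 0.0651) and Krtdap at -0.84 ± 0.24 (edgeR adjusted p = 0.0561), where 15.9% of all genes were called. Leaving out buccal mucosa replicate 1 in its place turned both differences upward, to 2.04 for Lor and 2.26 for Krtdap.

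The same 7 samples scaled by the keratinocyte list placed more of the set lower in hard palate. Krtdap was at -1.09 ± 0.22 (edgeR adjusted p = 0.0191), Lor at -1.09 ± 0.26 (adjusted p = 0.0321) and Evpl at -0.75 ± 0.20 (adjusted p = 0.0457), while Ivl stayed higher at 1.49 ± 0.36 (adjusted p = 0.0331). That made 4 of 8 members, where 16.5% of all genes were called. Hard palate had the highest levels of the list itself, 5482 and 4607 CPM. Lor UMIs were also limited by the UMI ceiling. By reads per 1000 list reads, hard palate averaged 1225 for Lor and 847 for Krtdap. Dorsal tongue averaged 5134 and 2557 by reads, and ventral tongue 3330.5 and 2569. A fit of these 7 samples by reads with this scaling is not given here. Per 1000 list UMIs, Lor stood at 456 and 610 in hard palate and at 917 to 1708 in the other 5 samples. Sbsn, in contrast, kept within 202 to 278 in all 7 samples, a 1.38-fold range, and its log2 difference in hard palate was -0.16 ± 0.21 (edgeR adjusted p = 0.614).

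**Figure D3:**
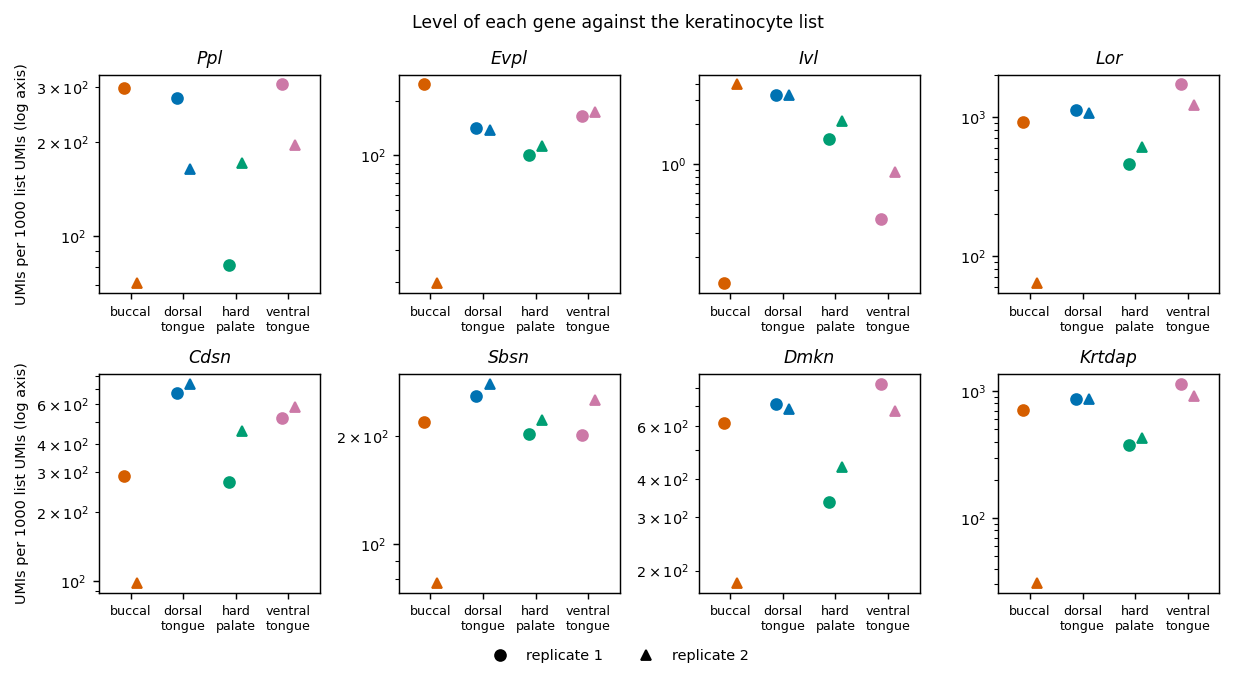
UMIs of each gene per 1000 UMIs of the keratinocyte list (log axis) by site, with circles for replicate 1 and triangles for replicate 2. Hard palate is lowest of the 7 samples for Lor, at 456 and 610, and Sbsn spans 202 to 278 outside buccal mucosa replicate 2.

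Through the section order, sections 1 to 10 were compared with sections 11 to 20 within each sample. Sections 1 to 10 are called early and 11 to 20 late below. Of the 8 genes, 6 were higher in early sections, where 13.8% of the 15312 genes tested were called higher and 32.3% were called in either direction. Ppl was higher in 8 of 8 samples, by log2 ratios of 0.36 to 1.13, with a fitted log2 fold change of 0.67 ± 0.08 (SE; edgeR adjusted p = 0.000265). Evpl was higher in 8 of 8 samples, with 0.58 ± 0.10 (edgeR adjusted p = 0.00142). Both plakins had their widest ratio outside buccal mucosa replicate 2 in ventral tongue replicate 1, at 1.13 and 0.99. Cdsn was higher in 8 of 8 samples, with 0.61 ± 0.10 (edgeR adjusted p = 0.000828). Sbsn was higher in 8 of 8 samples, with 0.69 ± 0.09 (edgeR adjusted p = 0.000276), and the entries it overlaps gave 0.77 and 0.67. Krtdap was higher in 8 of 8 samples by a smaller 0.41 ± 0.10 (edgeR adjusted p = 0.00876). By reads it was 0.56 ± 0.09 (edgeR adjusted p = 0.00139, where 28.9% of all genes were called), near the 0.62 of Evpl by reads.

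Ivl, Lor and Dmkn were less uniform. Ivl was higher in early sections in 5 of 8 samples, with 0.45 ± 0.16 (edgeR adjusted p = 0.0482). Both buccal samples, of 8 and 6 UMIs, and ventral tongue replicate 2 had ratios below 0. The Ivl call was lost by reads (0.34 ± 0.19, adjusted p = 0.203), by DESeq2 (adjusted p = 0.0891) and without dorsal tongue replicate 1, dorsal tongue replicate 2, hard palate replicate 1, hard palate replicate 2 or ventral tongue replicate 1 (adjusted p of 0.0571 to 0.129). Lor missed the threshold by UMIs, at 0.32 ± 0.12 (edgeR adjusted p = 0.0625), and passed by reads, at 0.70 ± 0.14 (edgeR adjusted p = 0.00400, where 28.9% of all genes were called). In buccal mucosa replicate 1 the Lor ratio was -0.19 by UMIs and 0.75 by reads, so the direction there differed between the tables. By reads Lor was higher in early sections in 8 of 8 samples, between 0.37 and 1.01. Without buccal mucosa replicate 1 the UMI value was 0.45 and passed (edgeR adjusted p = 0.0109).

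Dmkn was higher in early sections in 8 of 8 samples but missed the threshold, at 0.70 ± 0.29 (edgeR adjusted p = 0.0821). Its log2 ratio was 4.13 in buccal mucosa replicate 2 and 0.20 to 0.84 in the other samples. The first 5 sections of that sample held 74, 29, 13, 54 and 44 Dmkn UMIs. Without it the difference was 0.44 ± 0.09 and passed (edgeR adjusted p = 0.00403), and 7 of 8 members were then called, where 34.2% of all genes were called. The keratinocyte list itself had an early to late ratio of 2.22 in that sample. Its part in the Dmkn value was not tested.

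**Figure D4:**
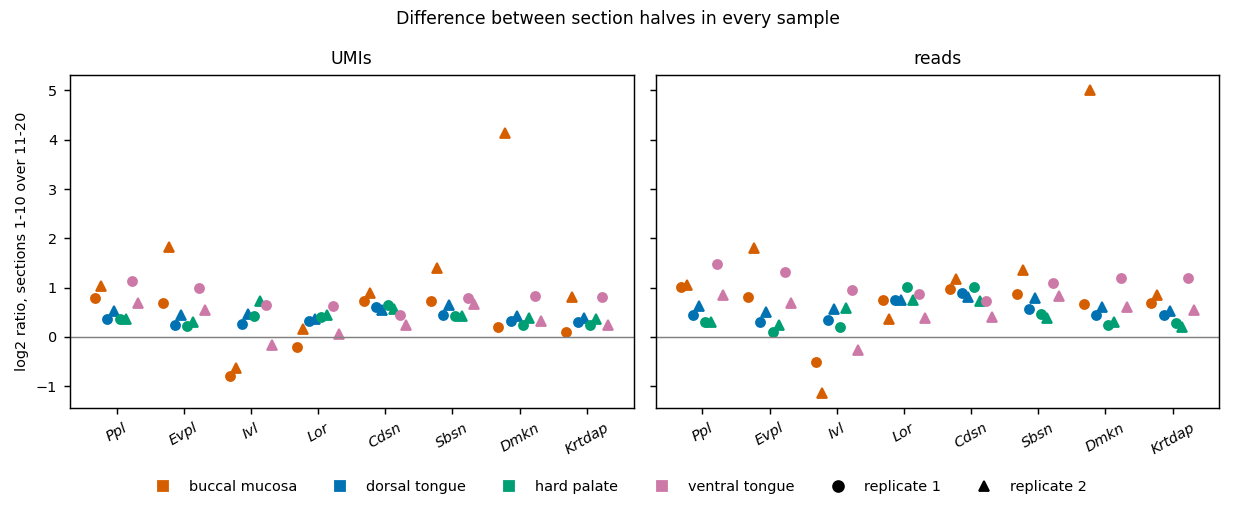
Log2 ratio of the level in sections 1 to 10 over sections 11 to 20 for every gene and sample, by UMIs on the left and by reads on the right, coloured by site, with circles for replicate 1 and triangles for replicate 2. Most points lie between 0 and 1.5, Dmkn of buccal mucosa replicate 2 stands at 4.13 by UMIs and 5.01 by reads, and Lor of buccal mucosa replicate 1 lies below 0 by UMIs and above it by reads.

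The keratinocyte list was also higher in early sections in all 8 samples, by 1.01-fold to 2.22-fold. When samples were scaled by that list, none of the 8 members was called between early and late sections (edgeR, 0 of 8, and 0 of 8 at an unadjusted p under 0.05), and their log2 differences ran from -0.18 (Lor) to 0.26 (Dmkn). Lor and Krtdap (-0.06) changed sign. This scaling moved the median of all genes to -0.51 and called 68.3% of them, 57 higher and 10406 lower, against 2111 higher and 2830 lower before. Without buccal mucosa replicate 2 it also called 0 of 8 members, from -0.09 (Lor) to 0.22 (Ppl), where 62.0% of all genes were called. DESeq2 without this scaling called 6 of 8, where 32.7% of all genes were called. No member showed an early to late difference that depended on the site (edgeR, 0 of 8, where 0.359% of all genes were called, and 0 of 8 at an unadjusted p under 0.05; DESeq2 also 0 of 8, where 2.63% were called, with 2 members at an unadjusted p under 0.05).

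**Figure D5:**
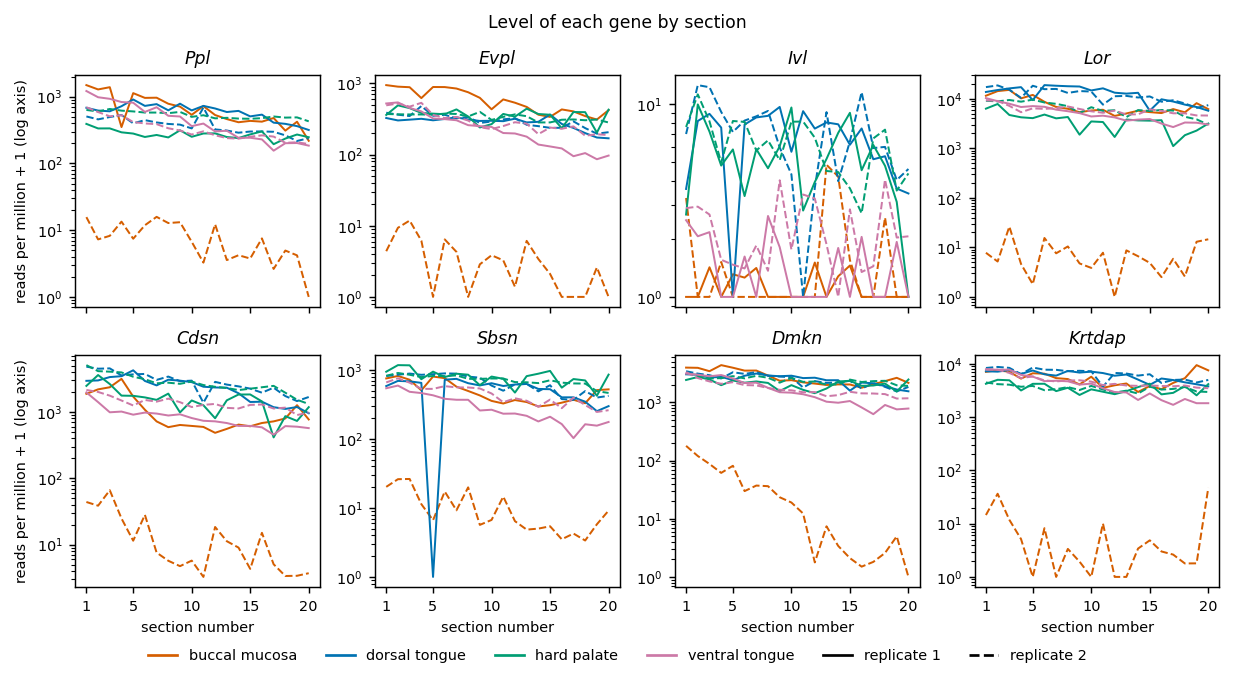
CPM by reads plus 1 (log axis) of each gene against section number, coloured by site, with solid lines for replicate 1 and dashed lines for replicate 2. Over all sections the 7 samples other than buccal mucosa replicate 2 lie 1.89-fold (Krtdap) to 28.4-fold (Ivl) apart, and Dmkn of buccal mucosa replicate 2 drops across the sections, whereas the dip of Sbsn at section 5 of dorsal tongue replicate 1 is a section of 2523 UMIs in all.

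Among sections of at least 100000 UMIs, the genes peaked at different numbers. The section with the highest Ppl CPM was number 1 in 6 of 8 samples, and number 9 and 4 in dorsal tongue replicates 1 and 2. Sbsn peaked at number 2 or 3 in 7 samples and at 7 in dorsal tongue replicate 1. Lor peaked anywhere from section 1 to section 17 by UMIs, with 70 sections near the UMI limit. In ventral tongue replicate 1, Evpl ran from 166 to 806 CPM across sections, and in dorsal tongue replicate 1 from 294 to 557 CPM.

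Profiles along the 20 sections showed which members ran together within a sample. As a description over 8 samples, whose sections share library and depth, the mean Spearman correlation of CPM was taken by UMIs and by reads. The tables differed most for Lor, whose UMIs are near the ceiling in 70 sections. Lor with Sbsn gave 0.31 by UMIs and 0.78 by reads, and Lor with Krtdap, which has 5 sections near the ceiling, gave 0.79 and 0.74. By UMIs the highest value was between Dmkn and Krtdap, at 0.82 (0.77 by reads). By reads it was between Sbsn and Dmkn, at 0.84 (0.66 by UMIs). Without buccal mucosa replicate 2, Dmkn with Krtdap stayed highest by UMIs, at 0.90. By reads Lor with Cdsn (0.861) then came just above Sbsn with Dmkn (0.860). Cdsn and Dmkn gave 0.81 by UMIs and 0.79 by reads. The plakins reached 0.72 and 0.64 with each other, and Evpl reached 0.79 and 0.72 with Sbsn. Lor and Ivl, the chromosome 3 neighbours, gave 0.01 and 0.30. Ivl is sparse, and its values with the other members were at most 0.33 by UMIs and 0.31 by reads.

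Genes outside the set with the most alike profile were picked among 3900 genes of at least 50 CPM by their UMIs, and the value by reads is given beside. For Ppl and Evpl the first was Elovl4, an elongase of very long chain fatty acids, at 0.82 for each (0.77 and 0.75 by reads, at ranks 2 and 4). For Lor it was Tgm3, a transglutaminase that cross-links envelope proteins, at 0.91, then the keratins Krt13 at 0.89 and Krt6a at 0.87. These 3 genes had mean levels of 2577, 3567 and 3007 CPM, in the range of Lor itself, and share its section totals. By reads they gave 0.81, 0.74 and 0.79 with Lor, which placed them at ranks 5, 26 and 10. By UMIs Fam25c led for Cdsn (0.84, and 0.84 by reads) and Dmkn (0.85 and 0.82), each followed by Asprv1, a protease that processes filaggrin. By reads Asprv1 ranked 1 for Cdsn, at 0.89, and Fam25c ranked 4. For Dmkn, Fam25c and Asprv1 ranked 6 and 13 by reads. Asprv1 led for Krtdap at 0.85 (0.79 by reads, at rank 3). After its overlapping entry (0.99), Sbsn was most like Ly6g6c at 0.85 (0.84 by reads, at rank 3). The best match of Ivl was Ndel1 at 0.46 (0.36 by reads, at rank 12).

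Other genes of the envelope, its junctions and its enzymes were also higher in early sections. The counts here stand against 13.8% of all genes called higher. These lists were chosen with earlier results of these data known, so the counts describe the lists and are no independent support. Of 20 tested envelope partners, 14 were higher in early sections and none lower, with a median log2 difference of 0.65 against -0.02 over all genes. Cst6, a protease inhibitor of the cornified layer, was higher by 0.77 ± 0.10 (edgeR adjusted p = 0.000352), and the late envelope gene Lce3a by 0.60 ± 0.09 (edgeR adjusted p = 0.000512). Of 13 junction genes, 9 were higher and none lower, with a median of 0.52. The plaque protein Pkp3 (0.66 ± 0.09, edgeR adjusted p = 0.000398) and the cadherin Dsg1b (0.52 ± 0.07, edgeR adjusted p = 0.000507) led them. Of 19 tested enzymes and inhibitors of cornification, 17 were higher and none lower, with a median of 0.63. The lipoxygenase Aloxe3 (0.70 ± 0.07, edgeR adjusted p = 0.000153) and the kallikrein Klk8 (0.67 ± 0.07, edgeR adjusted p = 0.000164) led them. The keratinocyte list had 6 of 14 higher, none lower, and a median of 0.37. Scaled by that list, the medians of the envelope, junction and enzyme lists were 0.18, 0.07 and 0.18, against -0.51 over all genes.

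Between sites these lists gave few calls with all 8 samples. None of 21 envelope partners and none of 13 junction genes passed the edgeR test of any difference, where 4.76% of all genes did. Klk6, a kallikrein protease, was the 1 of 20 enzymes that passed (edgeR adjusted p = 0.0301), and it was higher in hard palate by 4.17 ± 0.53 (edgeR adjusted p = 0.00669). Without buccal mucosa replicate 2, 10 envelope partners, 4 junction genes and 6 enzymes passed, where 12.3% of all genes did, and of the 8 members only Ivl. The early to late difference of Krt1, a keratin of cornifying epidermis, depended on the site (edgeR adjusted p = 0.00348). In the test of that dependence 0.359% of all genes were called.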

How the data were processed

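Tomo-seq libraries of 8 samples (20 sections each) were made with CEL-seq2 and sequenced on a NextSeq500, per the labels' protocols. The submitters' processing notes list the build GRCm38 and the tools STAR 2.7.9a and Trim Galore 0.6.10. How reads were assigned to genes was not given in the sources used here. Counts deposited by the authors were counts of UMIs per gene and section, counts of reads, and expected counts, which are transcripts estimated from UMI counts with a correction for UMI collisions. UMI counts were used unless stated, and estimated transcripts were rounded to whole numbers.

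Counts were summed per sample, or over early and over late sections. In R 4.3.3, edgeR 4.0.16 fitted a quasi-likelihood model after its filterByExpr and TMM scaling, and a gene was called at a Benjamini-Hochberg adjusted p under 0.05 across everything tested. The spread was estimated over all sites together. Early and late sections were compared in a fit that blocks on the sample, with an interaction term for the dependence on site. Standard errors were taken from the log2 fold change and its F statistic. CPM is counts per 1000000, with no pseudocount. DESeq2 1.42.0 and the other alternatives are described in the closing section. The fits were tested on simulated data.

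The members and gene lists were chosen with earlier results of these data known. All 8 members are named in each comparison. Of the other envelope, junction and enzyme genes, at most the 2 with the smallest adjusted p per direction among those called are named, and for each member the 3 genes at most with the highest mean within-sample Spearman correlation. Entries naming several genes (413) stayed in the library sizes.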

Additional observations from a re-analysis of the deposited data

Results flagged for a closer look

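In buccal mucosa replicate 2 the log2 ratio of sections 1 to 10 over sections 11 to 20 stood apart from the other 7 samples for 3 genes, by the gap to the nearest sample as a share of the whole range. Dmkn was at 4.13 by UMIs, where the next sample was at 0.84, and at 5.01 by reads, where the next was at 1.20. Evpl was at 1.83 by UMIs, from 30 UMIs in the whole sample, where the next sample was at 0.99. Sbsn was at 1.41 by UMIs, from 119 UMIs, where the next was at 0.79. Of 16 groups of 8 values examined (8 genes by UMIs and by reads), 4 gave such a value, and chance flags about 1 in 20 groups. All 4 came from this sample, and Dmkn was flagged by both UMIs and reads, so they are not independent. By reads neither Evpl nor Sbsn was flagged. By UMIs Evpl passed narrowly, with a gap share of 0.528 against a limit of 0.526.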

How the results depend on the processing

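Scaling by the keratinocyte list brought the members called to 0 in the test of any difference between sites (1 before), in dorsal tongue (1), in hard palate (1) and between early and late sections (6), and the same scaling of reads, chosen after seeing the data, also gave 0 in these 4. Without buccal mucosa replicate 2 and with that scaling, also chosen after seeing the data, the counts were 2, 4 and 0 for any difference, hard palate and early against late sections. With no filter on low counts 2 members were called for any difference, 2 in buccal mucosa and 1 for the dependence of the early to late difference on site. How many of all genes that setting called is not given here. DESeq2 called 1 in buccal mucosa, and reads called 0 in dorsal tongue and 0 in hard palate. Leaving out 1 sample in turn left a site with 1 sample, so members called between sites in those fits are not counted here. Most were called without buccal mucosa replicate 1, which left the keratinocyte-poor sample as the only buccal one. For any difference, buccal mucosa, dorsal tongue and hard palate, that fit also called more of all genes than the others did. Between early and late sections, leaving out 1 sample in turn called 5 to 7 members, where 3552 to 5265 of all genes were called. The directions that turned were those of Ivl in buccal mucosa (0.12 with the keratinocyte scaling, 1.15 with reads so scaled), Ivl in hard palate (-0.36) and between early and late sections (-0.13) with reads so scaled, Lor between early and late sections (-0.18, and -0.092 without buccal mucosa replicate 2) and Krtdap between early and late sections (-0.059, and -0.035). Leaving out 1 sample took Lor and Krtdap in hard palate from -0.737 and -0.735 (without buccal mucosa replicate 2) to 2.04 and 2.26 (without replicate 1), and over all alternatives the lowest values were -1.19 and -1.095, both with keratinocyte scaling. Over 30 results for single members and 562 alternative values, 469 kept direction and call, 53 lost the call, 30 gained one and 10 turned. The cause of these changes was not tested.

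Over all genes the count of calls ranged, across alternatives, from 0 to 7735 for any difference (886 in the report), 0 to 14620 for buccal mucosa (134), 1 to 1801 for dorsal tongue (156), 318 to 5526 for hard palate (1817), 0 to 2895 for ventral tongue (240), 0 to 11247 for early against late sections (4941) and 2 to 1958 for the dependence (55). Depth limits Ivl most, with 6 to 255 UMIs per sample, and the UMI ceiling limits Lor.

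Replicate numbers were shared across sites, and the labels do not say that a number marks anything shared. The deviations of same-numbered samples correlated at 0.54 between dorsal and ventral tongue, at 0.14 between buccal mucosa and hard palate, and at -0.21 to -0.10 in the other 4 pairs of sites. The numbers were therefore not taken to pair samples across all sites, while same-numbered samples of the tongue sites did deviate together. With the replicate block the members called stayed at 1 for any difference, 0 for buccal mucosa, 1 for dorsal tongue, 1 for hard palate and 0 for ventral tongue, and all genes called went to 362, 2, 83, 1334 and 48. Without the replicate block (the sample) between early and late sections, 0 of 8 members and 0 of all genes were called, with 573 genes at an unadjusted p under 0.05.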
